A study of Homo sapiens with 12 samples.

Results

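Cyclins, cyclin-dependent kinases (CDKs), the CDC25 phosphatases, WEE1 and the E2F and retinoblastoma proteins were followed in H460 cells, a human lung cancer line, treated with 1 of 5 drugs. The genes were taken by symbol: those starting with CCN and a letter, CDK, CDC25, E2F or WEE, together with RB1, RBL1, RBL2, TFDP1, TFDP2, CKS1B and CKS2, and without CCNG1 and CDKN1A. The table held 42 such genes, read by 46 probes, of 5499 genes in all. Per the labels, cells were treated for 24 h with 1 µM 5-fluorouracil (5-FU), 0.2 µM cytarabine, 5 µM cisplatin, 5 nM paclitaxel or 0.2 µM cytochalasin D, and each treated RNA was hybridised on two-channel arrays against RNA of untreated H460 cells. There were 12 arrays. Each drug had 2 replicates, and 5-FU had 4 arrays, 2 in each channel orientation. Which 5-FU arrays share RNA is not stated, so those with the same number in their titles were taken as 1 replicate. The other 4 drugs had treated RNA in channel 1 on every array. Doses differ between the drugs, so a difference between drugs is also one between doses. All arrays come from 1 cell line, and the labels do not say whether untreated RNA was shared between drugs. Nor do they say whether replicates were separate cultures, so p-values measure only the spread between these samples, which may be technical. Every reading given is the log2 of treated over untreated signal on 1 array, so untreated cells have no level of their own here.

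A cyclin binds and switches on its CDK. D and E cyclins act before S phase, where their kinases phosphorylate the retinoblastoma protein and so release E2F factors. E2F factors drive genes of DNA synthesis. A and B cyclins with CDK1 act in G2 and mitosis. WEE1 holds CDK1 inactive by phosphorylating it, and CDC25 phosphatases remove that phosphate. A second set of cyclins and CDKs, such as cyclin T with CDK9, phosphorylates RNA polymerase II. 5-FU and cytarabine interfere with DNA synthesis, cisplatin crosslinks DNA, paclitaxel stabilises microtubules and cytochalasin D blocks actin polymerisation.

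The direction of the ratios is likely, not stated: 1 sign for all arrays was set so that MDM2 and CDKN1A, targets of p53, are positive in 5-FU (MDM2 reads 1.15 to 1.80 on its arrays). Values on each array were centred on the array's median. Since a ratio holds treated and untreated RNA of unknown amounts, fewer cells in a cycle phase and less RNA per cell cannot be told apart. The arrays gave 4357 to 6411 probe values in 5-FU and 6989 to 7644 in the other drugs, of 8170 probes. Replicate arrays of the other drugs correlated at 0.713 to 0.819. For 5-FU arrays r was lower, 0.627 to 0.678 in the same orientation and 0.488 to 0.527 between orientations. Between orientations, arrays with the same number (0.527 and 0.488) were no more alike than those with different numbers (0.525 and 0.496). These values thus do not show which 5-FU arrays share RNA. Paclitaxel, cytochalasin D and cytarabine arrays gave r of 0.629 to 0.725 from drug to drug, which overlaps the range of replicates. Cisplatin arrays gave 0.349 to 0.442 with these 3 drugs. 5-FU arrays gave only 0.041 to 0.186 with the other 4 drugs. Missing values were common: 18 of the 42 genes had a value on all 12 arrays. In 5-FU 18 genes had all 4 values, 17 had some and 7 had none, whereas 38 to 41 genes had both values in each other drug. CCNB1, CCNA2, CDK2, CDK4, CCND3, CCNE2, RBL2, CDKN2A and CKS1B are not analysed here. The fit across all features included a channel term, estimated from the 5-FU arrays of both orientations, and tested a gene in a drug where both replicates and the term had values. Across 4614 features this channel effect correlated at r = 0.0595 with the mean of the 8 arrays of the other 4 drugs, so values without the term are given beside the calls in those drugs that it changes. "Rose" and "fell" stand for an adjusted p under 0.05 in limma with Benjamini-Hochberg adjustment over all features, and ± is the standard error of the log2 ratio in that fit, with 2 replicates per drug. It rests on 1 moderated variance per gene, shared by all drugs, so it does not show the spread of a single drug's replicates.

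**Figure D1:**
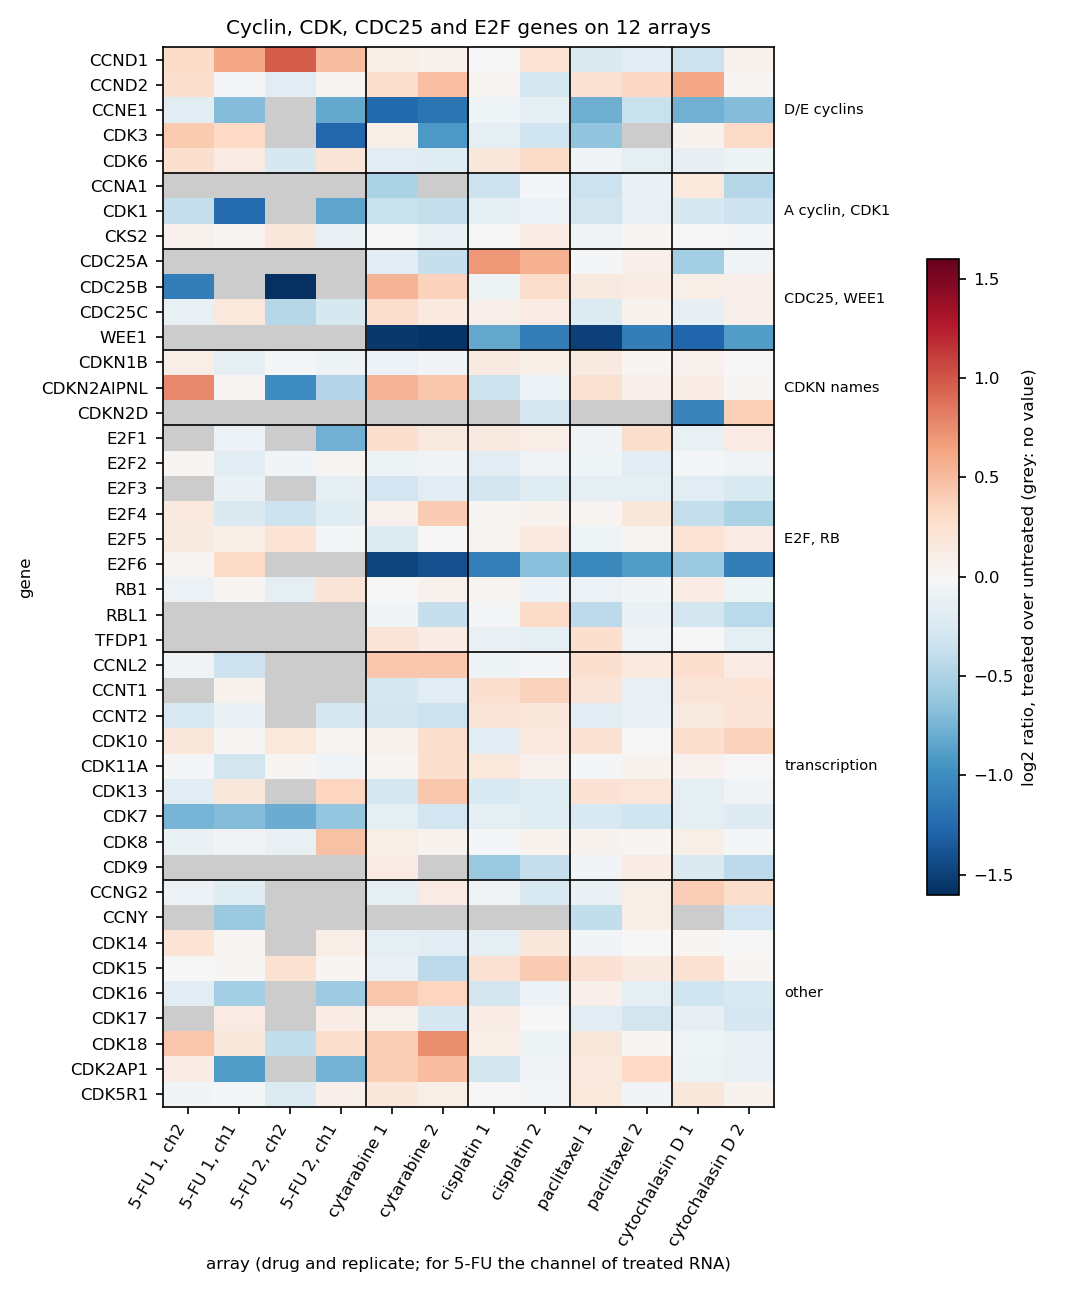
Log2 ratio of treated over untreated RNA (colour) of the 42 genes (down the page, in groups of like role) on the 12 arrays (across). Grey cells hold no value; the group "CDKN names" holds CDKN1B, CDKN2D and CDKN2AIPNL, the last of which is a member by name only. WEE1 and E2F6 are blue on all 8 arrays of cytarabine, cisplatin, paclitaxel and cytochalasin D, with readings of −0.59 or lower.

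In each drug 1 to 8 of the genes passed the test. In 5-FU 2 of 18 tested genes passed, against 15.7% of all 3829 features tested: CCND1 rose and CDK7 fell. In cytarabine 8 of 29 passed, against 22.6% of 4683 features; 4 rose, against 11.2% of features, and 4 fell, against 11.3%. The rises were CCNL2, CDK16, CDK18 and CDK2AP1, and the falls CCNE1, CCNT2, CDK7 and E2F6. In cisplatin 1 of 29 passed, E2F6, against 16.8% of 4883 features. In paclitaxel 3 of 28 passed, against 6.96% of 4796 features: CDK2AP1 rose, and CDK7 and E2F6 fell. In cytochalasin D 1 of 29 passed, again E2F6, against 11.2% of 4835 features. The share of these genes that passed was 3.45% in cisplatin and in cytochalasin D, below that of all features, and 27.6% in cytarabine, near it. Their median log2 ratio lay between 0.01 in 5-FU and 0.07 in cytochalasin D.

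Without the channel term more of the genes could be tested. Then 8 of 30 passed in 5-FU, against 19.1% of features, and 12 of 38 in cytarabine, against 25.9%. In cisplatin 6 of 40 passed, against 15.8% of features, in paclitaxel 4 of 40, against 9.58%, and in cytochalasin D 5 of 41, against 11.0%. The genes gained this way include WEE1, CDK1 and CDC25B, described with their groups.

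Promoter sequences are shown for 5 of the genes because 2 sequence words are known for this gene group: E2F sites, at which E2F factors bind, and the cell cycle homology region (CHR), found at genes of G2 and mitosis. In the 250 bases before the gene start, both strands were searched for the E2F words TTTCGCGC, TTTGGCGC, TTTCCCGC and TTTGCCGC and for the CHR word TTTGAA. Bases after the start were not searched, so sites there are missed, and a word that matches is not shown to be a working site. Of 42 genes, 38 had an entry in the RefSeq promoter table (GRCh38.p14). An E2F word was in 7 of the 38 (18.4%), CDC25A, CDK10, E2F1, E2F2, E2F3, RBL1 and TFDP1, against 2.79% of 27305 promoters. The CHR word was in 3 of the 38 (7.89%), CDK1, CKS2 and E2F3, against 13.6%, and the word CCAAT, bound by the factor NF-Y and left in lower case, in 13 of the 38 (34.2%), against 33.0%. The sequences run 5′ to 3′ on the strand of the gene and end at the base before its start, with the E2F or CHR word in capitals. CDC25A lies at chr3:48188418-48188667 on the minus strand and has its E2F word 44 bases before the start. E2F1 lies at chr20:33686386-33686635 and RBL1 at chr20:37095998-37096247, both on the minus strand; E2F1 has E2F words 33 bases (read on the opposite strand) and 20 bases before the start, and RBL1 26 and 16 bases before it. None of the marked words overlap. CDK1 lies at chr10:60778081-60778330 on the plus strand with its CHR word 161 bases before the start, and CKS2 at chr9:89310945-89311194 on the plus strand with its CHR word 29 bases before it, read on the opposite strand.
CDC25A: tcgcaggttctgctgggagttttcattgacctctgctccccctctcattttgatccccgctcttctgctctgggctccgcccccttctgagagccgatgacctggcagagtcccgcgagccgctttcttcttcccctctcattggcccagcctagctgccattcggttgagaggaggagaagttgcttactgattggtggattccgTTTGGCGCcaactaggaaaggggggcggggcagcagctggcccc
E2F1: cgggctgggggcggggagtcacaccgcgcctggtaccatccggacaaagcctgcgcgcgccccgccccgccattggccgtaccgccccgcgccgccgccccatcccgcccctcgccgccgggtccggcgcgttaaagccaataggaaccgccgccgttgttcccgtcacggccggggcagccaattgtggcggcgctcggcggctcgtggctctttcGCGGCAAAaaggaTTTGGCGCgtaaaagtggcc
RBL1: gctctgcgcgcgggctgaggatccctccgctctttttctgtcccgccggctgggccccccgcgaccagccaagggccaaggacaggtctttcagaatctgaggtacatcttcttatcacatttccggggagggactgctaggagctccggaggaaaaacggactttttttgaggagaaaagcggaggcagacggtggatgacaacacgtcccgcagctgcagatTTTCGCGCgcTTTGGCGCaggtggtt
CDK1: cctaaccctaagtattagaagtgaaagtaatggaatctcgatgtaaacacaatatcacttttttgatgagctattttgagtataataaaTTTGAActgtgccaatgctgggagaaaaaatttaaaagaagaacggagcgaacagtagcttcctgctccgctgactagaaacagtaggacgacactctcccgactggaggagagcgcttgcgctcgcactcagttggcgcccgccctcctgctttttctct
CKS2: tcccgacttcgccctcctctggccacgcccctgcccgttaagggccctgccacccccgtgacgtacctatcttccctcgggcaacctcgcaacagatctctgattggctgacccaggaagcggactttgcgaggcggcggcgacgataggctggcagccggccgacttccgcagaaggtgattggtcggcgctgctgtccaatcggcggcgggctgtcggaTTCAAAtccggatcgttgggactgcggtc
Of these 5 genes, CDC25A differed between drugs and CDK1 was low in 5-FU, as described with their groups, while E2F1, RBL1 and CKS2 passed no test in any drug.

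Cyclin E1 (CCNE1), the partner of CDK2 at the start of S phase, fell in cytarabine. Its log2 ratio was −1.25 and −1.17 on the cytarabine arrays, −0.07 and −0.15 on the cisplatin arrays, −0.78 and −0.36 on the paclitaxel arrays and −0.77 and −0.70 on the cytochalasin D arrays. In 5-FU it read −0.19 with treated RNA in channel 2 (replicate 1) and −0.70 and −0.82 with treated RNA in channel 1 (replicates 1 and 2), with no value on the last array. All 11 values were negative, and those of cytarabine and cisplatin lay furthest apart. In cytarabine the fall was −0.96 ± 0.14 (0.516-fold, adjusted p = 0.00572), a call that no alternative in which it could be tested ended. Paclitaxel (−0.31 ± 0.14, adjusted p = 0.214) and cytochalasin D (−0.48 ± 0.14, adjusted p = 0.0755) missed the threshold, as did cisplatin (0.14 ± 0.14, adjusted p = 0.506). Without the channel term CCNE1 fell also in paclitaxel (−0.57 ± 0.12, adjusted p = 0.0222), in cytochalasin D (−0.73 ± 0.12, adjusted p = 0.00752) and in 5-FU (−0.63 ± 0.12, adjusted p = 0.00766), the last a call that ended without 5-FU replicate 2 (−0.44).

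Cyclin D1 (CCND1), the partner of CDK4 and CDK6, rose in 5-FU. It read 0.29 and 0.97 on the 5-FU arrays with treated RNA in channel 2 and 0.62 and 0.50 on those with treated RNA in channel 1. Cytarabine arrays gave 0.11 and 0.07, cisplatin arrays −0.01 and 0.21, paclitaxel arrays −0.23 and −0.17 and cytochalasin D arrays −0.35 and 0.06. In these averages of its probes, each 5-FU array was above each array of the other drugs. The rise was 0.59 ± 0.11 (1.51-fold, adjusted p = 0.00691), and it lost its call without 5-FU replicate 2 (0.46). The gene has 2 probes that disagree: 1 had values on only 5 arrays and read −0.73, −0.26 and −0.64 on paclitaxel replicates 1 and 2 and cytochalasin D replicate 1, where the other read 0.27, −0.08 and −0.05. On the 5-FU arrays with treated RNA in channel 1 the first probe read 0.96 and 0.76, and the other 0.28 and 0.23. On that other probe alone the 5-FU arrays were thus not all above those of the other drugs. With the probe that has the most values alone, CCND1 still rose in 5-FU (0.44, adjusted p = 0.0265).

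The other genes of this step did not pass in any drug. CDK6 read −0.19 and −0.19 in cytarabine and 0.19 and 0.30 in cisplatin, with a ratio of −0.27 ± 0.08 in cytarabine (adjusted p = 0.0522). CCND2, the cyclin D2 gene, read −0.19 to 0.27 on the 5-FU arrays, 0.27 and 0.48 in cytarabine, 0.04 and −0.28 in cisplatin, 0.24 and 0.33 in paclitaxel and 0.62 and 0.01 in cytochalasin D. Its replicates in cytochalasin D stood further apart than those of any other drug with 2 arrays. CDK3, a kinase of cyclin C, ranged between −1.25 and 0.42 over the 5-FU arrays.

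CDK1, the kinase of mitotic entry, was lowest on the 5-FU arrays with treated RNA in channel 1. It read −0.38 with treated RNA in channel 2 (replicate 1) and −1.23 and −0.85 with treated RNA in channel 1 (replicates 1 and 2). Cytarabine arrays gave −0.36 and −0.39, cisplatin arrays −0.15 and −0.09, paclitaxel arrays −0.30 and −0.11 and cytochalasin D arrays −0.26 and −0.33. All 11 values were negative, and both 5-FU arrays with treated RNA in channel 1 were below every array of the other drugs, which share that orientation. The gene lacks the value that the test of 5-FU with the channel term needs. Without the term it fell in 5-FU by 0.83 on the log2 scale (−0.83 ± 0.06, 0.564-fold, adjusted p = 9.91e-05), and no replicate left out ended this call (values of −0.85 to −0.81). With each 5-FU array taken singly, not averaged per replicate, and the channel term it fell there too (−0.71, adjusted p = 0.000442). In the other 4 drugs the sign rests on the channel term. Cytarabine was 0.05 ± 0.09 with it (adjusted p = 0.719) and −0.37 ± 0.06 without it (adjusted p = 0.00419), and cytochalasin D 0.13 ± 0.09 with it (adjusted p = 0.386) and −0.29 ± 0.06 without it (adjusted p = 0.0236). Cisplatin was 0.30 ± 0.09 with it and −0.12 ± 0.06 without it, and paclitaxel 0.22 ± 0.09 and −0.21 ± 0.06, none of them called. The channel effect of CDK1, −0.42, rests on 1 pair of 5-FU arrays, and the term moved each of these values by its size. Whether this effect holds on the arrays of the other 4 drugs was not tested.

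CKS2, a subunit that binds CDK1, read between −0.11 and 0.18 over all 12 arrays and passed in no drug. CCNA1, a germ cell A cyclin, had no value in 5-FU and read between −0.50 and 0.17 elsewhere.

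WEE1, the kinase that inhibits CDK1, was low in all 4 drugs that gave it a value. It read −1.54 and −1.57 in cytarabine, −0.82 and −1.10 in cisplatin, −1.49 and −1.10 in paclitaxel and −1.27 and −0.89 in cytochalasin D, and had no value on any 5-FU array. No array came near 0, and the cytarabine values were the lowest. Without a 5-FU value there is no channel effect, so WEE1 was tested only without the term. It fell in cytarabine to −1.56 ± 0.13 (0.34-fold, adjusted p = 0.000418), in paclitaxel to −1.29 ± 0.13 (adjusted p = 0.00212), in cytochalasin D to −1.08 ± 0.13 (adjusted p = 0.00373) and in cisplatin to −0.96 ± 0.13 (adjusted p = 0.00457). The call in cisplatin ended without cisplatin replicate 2 (−0.82) and that in cytochalasin D without cytochalasin D replicate 1 (−0.89). All 4 drugs were hybridised in 1 orientation, so for WEE1 drug and channel cannot be told apart. Between drugs the channel cancels: cytarabine minus cisplatin was −0.59 ± 0.18 (adjusted p = 0.0592), the largest of its differences.

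CDC25A, the phosphatase that activates CDK2 and CDK1 and a target of E2F, was higher in cisplatin than in cytarabine or cytochalasin D. It read −0.18 and −0.37 in cytarabine, 0.70 and 0.57 in cisplatin, −0.01 and 0.08 in paclitaxel and −0.54 and −0.06 in cytochalasin D, with no value in 5-FU. Both cisplatin arrays were above all others. Cytarabine minus cisplatin was −0.91 ± 0.16 (adjusted p = 0.0121) and cisplatin minus cytochalasin D 0.93 ± 0.16 (adjusted p = 0.0203). Against untreated RNA it could be tested only without the channel term, and rose in cisplatin (0.63 ± 0.12, 1.55-fold, adjusted p = 0.0146). That call ended without cisplatin replicate 1 (0.57) and without cisplatin replicate 2 (0.70). The difference to cytarabine ended without cytarabine replicate 2 (−0.81) or cisplatin replicate 1 (−0.85), and that to cytochalasin D without cisplatin replicate 1 (0.87), cisplatin replicate 2 (0.99) or cytochalasin D replicate 1 (0.69).

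CDC25B, the phosphatase that starts CDK1 activation in G2, was low in 5-FU. It read −1.10 and −1.69 on the 5-FU arrays with treated RNA in channel 2 and had no value on those with treated RNA in channel 1. Cytarabine arrays gave 0.55 and 0.37, cisplatin arrays −0.08 and 0.28, paclitaxel arrays 0.15 and 0.11 and cytochalasin D arrays 0.09 and 0.08. In the fit with no channel term CDC25B fell in 5-FU (−1.40 ± 0.14, 0.379-fold, adjusted p = 0.000365) and kept its call with each replicate left out (values of −1.69 to −1.10). It rose in cytarabine (0.46 ± 0.14, adjusted p = 0.0476), a call that ended with either replicate of cytarabine (0.37 and 0.55), cisplatin, paclitaxel or cytochalasin D left out (0.46 for each of the last 3 drugs). The 5-FU values stand in the orientation opposite to that of the other drugs, so for CDC25B drug and channel cannot be told apart. CDC25C, the third phosphatase, passed in no drug and read between −0.46 and 0.28.

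**Figure D2:**
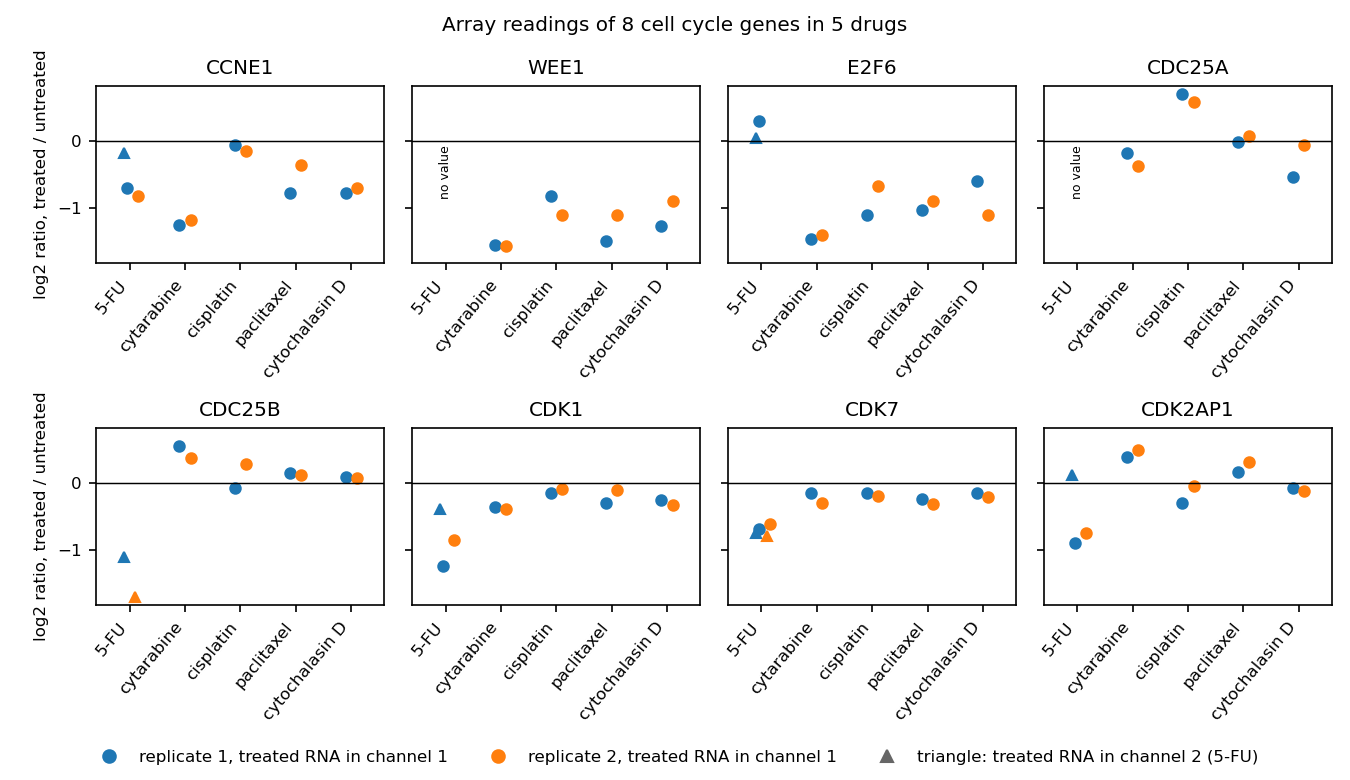
Log2 ratio of treated over untreated RNA (vertical axis) on each array for 8 genes, by drug; circles have treated RNA in channel 1, triangles in channel 2, blue is replicate 1 and orange replicate 2. CDK7 is lowest in 5-FU, as is CDK1 on the 5-FU arrays with treated RNA in channel 1, E2F6 and WEE1 are low in the 4 drugs other than 5-FU, and CDC25A is highest in cisplatin.

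Of the genes named for CDK inhibition, CDKN1B (p27, which inhibits CDK2) stayed between −0.14 and 0.15 on all 12 arrays and passed in no drug. CDKN2D, an inhibitor of CDK4 and CDK6, had a value on 3 arrays. CDKN2AIPNL, which has the symbol but is not a CDK inhibitor, read 0.77 and 0.05 in 5-FU replicate 1 and −1.0 and −0.47 in replicate 2, a spread wider than that of any other gene with all 4 values.

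E2F6, a repressor of the E2F family that does not bind retinoblastoma proteins, fell in 4 drugs. It read −1.46 and −1.40 in cytarabine, −1.10 and −0.67 in cisplatin, −1.03 and −0.90 in paclitaxel and −0.59 and −1.11 in cytochalasin D. In 5-FU only replicate 1 gave values, 0.05 and 0.30. The 8 values of the 4 drugs lay below both 5-FU values. The falls were −1.56 ± 0.20 in cytarabine (0.34-fold, adjusted p = 0.0036), −1.01 ± 0.20 in cisplatin (adjusted p = 0.0186), −1.09 ± 0.20 in paclitaxel (adjusted p = 0.0243) and −0.98 ± 0.20 in cytochalasin D (adjusted p = 0.0284). Without the channel term all 4 calls stood, at −1.43, −0.88, −0.96 and −0.85. The cytarabine call ended in no alternative in which it could be tested. The cisplatin call ended without cisplatin replicate 1 (−0.80), the paclitaxel call without paclitaxel replicate 1 (−1.02) or 2 (−1.15), and the cytochalasin D call with the replicate block, without paclitaxel replicate 2 (both −0.98) and without cytochalasin D replicate 2 (−0.72). No pair of these 4 drugs passed for E2F6; the largest difference was cytarabine minus cytochalasin D at −0.58 ± 0.20 (adjusted p = 0.149). For E2F6 and WEE1, whether an untreated RNA common to these drugs had a part in the low values was not tested.

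Among the other E2F and retinoblastoma genes no call over untreated RNA was made with the channel term. E2F4, which mainly represses genes together with RBL1 and RBL2, read −0.38 and −0.51 in cytochalasin D and 0.06 and 0.41 in cytarabine. In cytochalasin D it was −0.39 ± 0.11 (adjusted p = 0.0709) with the term and −0.45 ± 0.10 (adjusted p = 0.0247) without it. E2F1, an activator of S phase genes, read −0.09 and −0.77 in 5-FU on the 2 arrays that gave a value and between −0.12 and 0.29 in the other drugs, and it passed in no drug (5-FU −0.43 ± 0.16 without the term, adjusted p = 0.103). E2F3, also an activator, was negative on all 10 arrays with a value and fell in cytarabine (−0.25 ± 0.06, adjusted p = 0.0183) and cisplatin (−0.25 ± 0.06, adjusted p = 0.0257) without the term. It could not be tested with it. RB1 stayed between −0.16 and 0.20 on all 12 arrays. RBL1 (p107), a relative of RB1 that binds E2F4, had no value in 5-FU and read −0.04 and −0.37 in cytarabine, −0.03 and 0.31 in cisplatin, −0.42 and −0.11 in paclitaxel and −0.29 and −0.43 in cytochalasin D, and it passed in no drug. TFDP1, the partner that E2F factors need to bind DNA, also had no value in 5-FU, read between −0.15 and 0.27 elsewhere and passed in no drug.

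CDK7, the kinase that activates other CDKs and is a subunit of the transcription factor TFIIH, fell in 5-FU on all 4 arrays. It read −0.74 and −0.79 with treated RNA in channel 2 and −0.69 and −0.62 with treated RNA in channel 1. Cytarabine arrays gave −0.15 and −0.30, cisplatin arrays −0.16 and −0.19, paclitaxel arrays −0.24 and −0.32 and cytochalasin D arrays −0.15 and −0.20. The 5-FU values did not overlap with those of any other drug, and both orientations gave nearly the same level. In 5-FU CDK7 fell by 0.71 on the log2 scale (−0.71 ± 0.06, 0.611-fold, adjusted p = 9.22e-05), and no alternative ended this call. It fell less far in cytarabine (−0.28 ± 0.07, adjusted p = 0.0282) and paclitaxel (−0.34 ± 0.07, adjusted p = 0.0309). The cytarabine call ended with arrays scaled to the same spread (−0.20) and without 5-FU replicate 1 (−0.31) or 2 (−0.25), cytarabine replicate 2 (−0.20) or either cytochalasin D replicate (−0.28). The paclitaxel call ended with any replicate other than the cytarabine ones left out (−0.37 to −0.30). 5-FU minus each other drug passed: −0.43 ± 0.09 against cytarabine, −0.48 ± 0.09 against cisplatin, −0.38 ± 0.09 against paclitaxel and −0.48 ± 0.09 against cytochalasin D (adjusted p = 0.0153, 0.0107, 0.0359 and 0.0136).

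Of the genes of transcription and splicing other than CDK7, CCNT2 fell and CCNL2 rose in cytarabine. Cyclin T2 (CCNT2), a partner of CDK9 in the elongation factor P-TEFb, read −0.29 and −0.34 in cytarabine, 0.21 and 0.19 in cisplatin, −0.17 and −0.11 in paclitaxel and 0.14 and 0.20 in cytochalasin D. It fell in cytarabine (−0.39 ± 0.08, adjusted p = 0.0154, and −0.31 ± 0.05 without the channel term), a call that ended without cytarabine replicate 2 (−0.36). On the 5-FU arrays it read −0.25 (replicate 1, treated RNA in channel 2) and −0.10 and −0.27 (replicates 1 and 2, channel 1). With no channel term it also fell in 5-FU (−0.22 ± 0.05, adjusted p = 0.0262) and rose in cisplatin (0.20 ± 0.05, adjusted p = 0.0473, against 0.12 ± 0.08, adjusted p = 0.292 with the term). The 5-FU call ended without 5-FU replicate 1 (−0.27) or 2 (−0.18), and stood with each array taken singly (−0.22, adjusted p = 0.0233). Cyclin T1 (CCNT1), the other partner, read −0.28 and −0.16 in cytarabine and 0.25 and 0.37 in cisplatin, and passed in no drug. Cyclin L2 (CCNL2), a partner of CDK11 in RNA splicing, rose in cytarabine, with 0.43 on both arrays. Its ratio was 0.43 ± 0.06 (1.35-fold) without the channel term and 0.57 ± 0.08 with it (1.48-fold, adjusted p = 0.00623), a call that no alternative in which it could be tested ended. CDK9 itself read −0.59 and −0.37 in cisplatin and fell there without the channel term (−0.48 ± 0.09, adjusted p = 0.0217), the only fit in which it could be tested. CDK8, CDK10, CDK11A and CDK13 passed in no drug, and CDK11A probes may also read its near-identical copy CDK11B.

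CDK2AP1, which binds CDK2 and holds it back, rose in cytarabine and paclitaxel. It read 0.12 (replicate 1, treated RNA in channel 2), −0.90 and −0.75 (replicates 1 and 2, channel 1) in 5-FU, 0.39 and 0.49 in cytarabine, −0.30 and −0.04 in cisplatin, 0.16 and 0.32 in paclitaxel and −0.08 and −0.11 in cytochalasin D. The sign in 5-FU thus depended on the orientation. The ratio was 0.95 ± 0.11 in cytarabine (1.93-fold, adjusted p = 0.00289) and 0.74 ± 0.11 in paclitaxel (adjusted p = 0.0144). Without the channel term it was 0.44 ± 0.10 in cytarabine (adjusted p = 0.0166) and 0.24 ± 0.10 in paclitaxel (adjusted p = 0.204), where the call ended. The paclitaxel call also ended without paclitaxel replicate 1 (0.82) or 2 (0.66). The channel effect of CDK2AP1, −0.51 from 1 pair of 5-FU arrays, was the largest among these genes, and the term moved both ratios by its size. Whether this effect holds on the arrays of the other drugs was not tested.

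**Figure D3:**
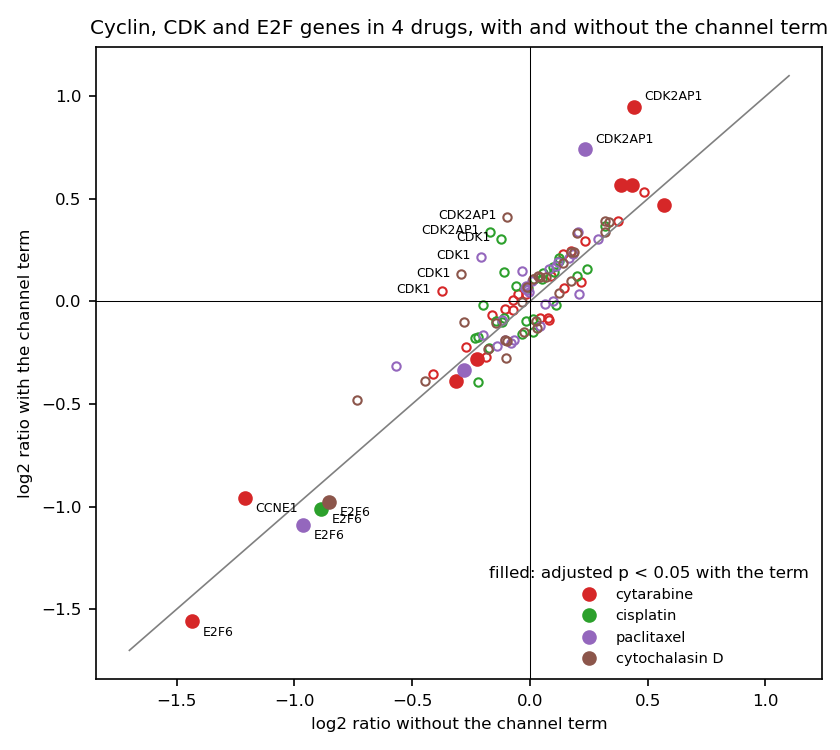
Log2 ratio with the channel term (vertical axis) against the log2 ratio without it (horizontal axis) for the genes tested in both fits, by drug; the grey line marks equal values and filled points passed the test with the term. E2F6 lies low in both fits in all 4 drugs, as does CCNE1 in cytarabine, whereas CDK1 lies on different sides of 0 and CDK2AP1 moves up by 0.51.

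CDK16, a kinase bound by cyclin Y, rose in cytarabine, with 0.43 and 0.34 on its arrays and −0.30 and −0.10 in cisplatin. Its ratio in cytarabine was 0.39 ± 0.09 without the channel term and 0.57 ± 0.11 with it (adjusted p = 0.0166). That call ended without cytarabine replicate 1 (0.53) or 2 (0.61). CDK18 rose there by 0.47 ± 0.14 (adjusted p = 0.0471), with 0.39 and 0.75 on its arrays. Its call ended with each array taken singly or the replicate block (both 0.47), with scaled arrays (0.39), without 5-FU replicate 1 (0.24), without cytarabine replicate 2 (0.29) and without any replicate of cisplatin, paclitaxel or cytochalasin D (0.47). In the fit with no channel term CDK16 and CDK2AP1 fell in 5-FU (−0.47 ± 0.09, adjusted p = 0.00701, and −0.57 ± 0.10, adjusted p = 0.00603), calls that ended without 5-FU replicate 2 (−0.37 and −0.39).

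The 10 pairs of drugs gave 21 calls among these genes in 303 tests, and each pair's share over all features is given with it. Cytarabine and cisplatin differed in the most of these genes, and also had the largest share of features among the pairs. Between them 10 of 38 genes passed (26.3%), near the 22.3% of 6622 features. Of these genes, 4 were higher in cytarabine, against 9.05% of features, and 6 lower, against 13.3%. Higher in cytarabine than in cisplatin were CDK2AP1 (0.61 ± 0.11, adjusted p = 0.013), CDK16 (0.58 ± 0.11, adjusted p = 0.0152), CDK18 (0.55 ± 0.16, adjusted p = 0.0441) and CCNL2 (0.49 ± 0.08, adjusted p = 0.0105). Lower were CCNE1 (−1.10 ± 0.14, adjusted p = 0.00408), CDC25A, CDK15 (−0.59 ± 0.13, adjusted p = 0.0175), CCNT1 (−0.53 ± 0.12, adjusted p = 0.0236), CCNT2 (−0.51 ± 0.08, adjusted p = 0.00692) and CDK6 (−0.43 ± 0.10, adjusted p = 0.0188). The arrays of these 10 genes do not overlap between the 2 drugs, but the genes were chosen by this same difference, so that is no further evidence. The channel term cancels in such a difference.

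The differences in CCNE1 and CCNT2 stayed past the threshold with any replicate left out, while each of the other 8 lost its call in at least 1 such fit. Without cisplatin replicate 1 CCNL2 was 0.47, CDK16 0.48, CDK2AP1 0.48, CDK15 −0.67, CDK18 0.65, CCNT1 −0.59 and CDK6 −0.48, none past it. CDK2AP1 also lost its call without cytarabine replicate 2 (0.56), CDK16 without either cytarabine replicate (0.54 and 0.62) and CDK15 without cytarabine replicate 2 (−0.44) or cisplatin replicate 2 (−0.51). The calls of CCNT1 and CDK6 ended without any of the 4 replicates (−0.59 to −0.47 and −0.48 to −0.37). That of CDK18 ended without cytarabine replicate 2, either cisplatin replicate or any paclitaxel or cytochalasin D replicate (0.38 to 0.65), and also with no channel term (adjusted p = 0.0531), each array taken singly (adjusted p = 0.139) or scaled arrays (adjusted p = 0.0623). The CDK6 call ended also with each array taken singly (adjusted p = 0.0814).

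The other calls of cytarabine rested on fewer settings. Cytarabine minus cytochalasin D passed for 3 of 38 genes, against 3.33% of 6604 features: E2F4 (0.68 ± 0.13, adjusted p = 0.0437), CDK16 (0.67 ± 0.11, adjusted p = 0.0376) and CCNT2 (−0.49 ± 0.08, adjusted p = 0.0324). The E2F4 call ended without any replicate other than cytarabine replicate 1 (0.51 to 0.74), and with no channel term (adjusted p = 0.0547), each array taken singly (adjusted p = 0.08) or scaled arrays (adjusted p = 0.0594). That of CDK16 ended without any replicate of cytarabine, cisplatin or cytochalasin D and without paclitaxel replicate 2 (0.63 to 0.71), and that of CCNT2 without any replicate of the 4 drugs other than 5-FU (−0.52 to −0.46). Scaled arrays ended both of these calls (adjusted p = 0.0668 and 0.0587), and each array taken singly that of CCNT2 (adjusted p = 0.0504). Cytarabine minus paclitaxel passed for 0 of 37 genes in limma, against 0.0% of 6558 features, with 6 genes at an unadjusted p under 0.05. Cisplatin minus cytochalasin D passed for 2 of 40, against 7.9% of 6948 features: CDC25A and CCNE1 (0.62 ± 0.14, adjusted p = 0.0445). The CCNE1 difference lost its call in the fit with no channel term (adjusted p = 0.0718) and without any replicate of cytarabine, cisplatin or cytochalasin D (0.58 to 0.67).

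**Figure D4:**
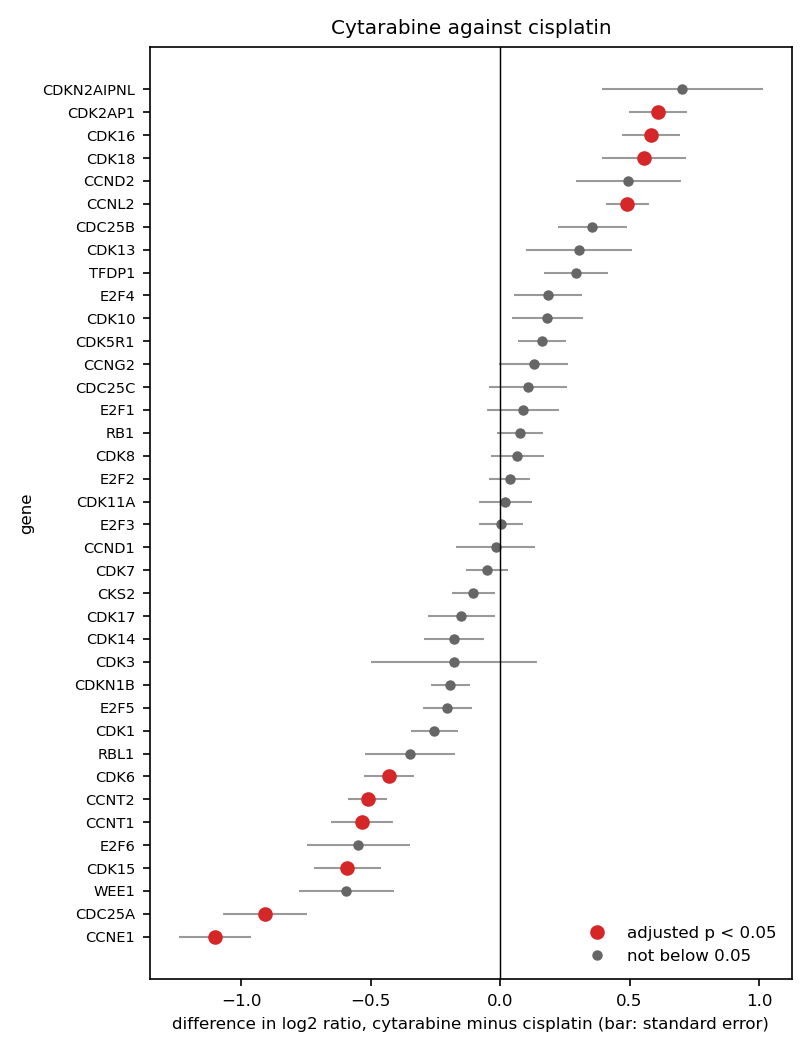
Difference in log2 ratio, cytarabine minus cisplatin (horizontal axis, bars are standard errors), for the 38 genes tested, in order. Red points passed at an adjusted p under 0.05; CDK2AP1 is the highest of these at 0.61 and CCNE1 the lowest at −1.10.

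Cisplatin minus paclitaxel passed for 0 of 39 genes in limma, against 5.95% of 6891 features, with 7 genes at an unadjusted p under 0.05, and paclitaxel minus cytochalasin D for 0 of 39, against 0.204% of 6855 features, with 5 genes at such a p. 5-FU minus cytarabine passed for 1 of 18 genes, against 18.1% of 3574 features, and 5-FU minus cisplatin for 1 of 18, against 14.2% of 3686, both CDK7. 5-FU minus paclitaxel passed for 2 of 18, against 11.0% of 3632 features, and 5-FU minus cytochalasin D for 2 of 18, against 11.3% of 3668. Beside CDK7 these were CCND1 (0.76 ± 0.17 against paclitaxel and 0.70 ± 0.17 against cytochalasin D, adjusted p = 0.0275 and 0.0375). The CCND1 differences ended with the probe that has the most values (0.16 and 0.25) and with either 5-FU replicate left out (0.64 to 0.82). That to paclitaxel also ended without either paclitaxel replicate (0.73 and 0.79), and that to cytochalasin D without any other replicate except cytochalasin D replicate 2 (0.50 to 0.70) and with each array taken singly (adjusted p = 0.0617). Of the CDK7 differences all 4 ended without 5-FU replicate 1 (−0.45 to −0.34), and those to cytarabine (−0.47) and paclitaxel (−0.41) also without 5-FU replicate 2. They ended, too, without cytarabine replicate 1 (−0.35), cisplatin replicate 1 (−0.46) or either cytochalasin D replicate (−0.45 and −0.50) where that drug was the partner. The CDK7 difference to paclitaxel ended also without any replicate of cisplatin, paclitaxel or cytochalasin D (−0.41 to −0.34) and with scaled arrays (−0.33).

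With no channel term 5-FU minus cytarabine passed for 6 of 30 genes, against 23.9% of features, 5-FU minus cisplatin for 4 of 30, against 16.2%, 5-FU minus paclitaxel for 5 of 29, against 13.9%, and 5-FU minus cytochalasin D for 5 of 30, against 13.2%. CDK1 was lower in 5-FU than in each of the other 4 drugs, by −0.45 against cytarabine to −0.71 against cisplatin (adjusted p = 0.0101 and 0.00189). CDC25B was lower by −1.86 against cytarabine to −1.48 against cytochalasin D (adjusted p = 0.000821 and 0.00271). Both 5-FU values of CDC25B come from arrays in the other orientation.

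The drugs directed at DNA (5-FU, cytarabine and cisplatin) minus those directed at the cytoskeleton (paclitaxel and cytochalasin D) passed for 0 of 18 genes in limma, against 5.83% of 3536 features, with 3 genes at an unadjusted p under 0.05. CCND1 came nearest (0.42 ± 0.10, adjusted p = 0.0569).

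Genes outside these families that act in the same pathway were read from lists of S phase, G2 and mitosis, checkpoint and epithelial genes, with the channel term unless stated. Over all features, 4.49% rose and 11.2% fell in 5-FU, 11.2% and 11.3% in cytarabine, 8.77% and 8.01% in cisplatin, 2.75% and 4.21% in paclitaxel and 4.57% and 6.6% in cytochalasin D. Of 25 measured S phase genes driven by E2F, 0 rose and 2 fell among 12 tested in 5-FU (TK1 by 0.39 and MCM7 by 0.34 on the log2 scale), with a median of −0.03, against 0.01 over all features. In cisplatin 5 of 20 rose and 0 fell, with a median of 0.27, against 0.01 over all features; RPA2, a subunit that binds single-stranded DNA, led with 1.15 ± 0.14 and MCM7, a subunit of the replicative helicase, followed with 0.53 ± 0.10. In cytarabine 2 of 19 rose (TK1 at 0.52 and CHAF1A at 0.23) and 1 fell (PRIM1, the primase, at −0.82). In paclitaxel 0 of 20 rose and PRIM1 fell (−0.46), and in cytochalasin D CHAF1A rose (0.24) and PRIM1 (−0.89) and TK1 (−0.52) fell. With no channel term, CHAF1A lost its call in cytarabine (0.14) and cytochalasin D (0.14), as did TK1 in cytochalasin D (−0.28) and SLBP, which binds histone RNA, in cisplatin (0.12, against 0.28 with the term). In that fit 6 of 24 S phase genes rose in cisplatin, with a median of 0.23.

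The list of genes of G2 and mitosis had 21 measured members; among 11 tested in 5-FU, 0 rose and 6 fell, with a median of −0.38, against 0.01 over all features. With no channel term 17 could be tested in 5-FU, of which 0 rose and 8 fell, with a median of −0.12. The falls were led by AURKA, the kinase that matures centrosomes and assembles the spindle (−1.67 ± 0.07), and BIRC5, a subunit of the chromosomal passenger complex (−1.15 ± 0.07). CDK1 and CDC25B, which act at mitotic entry, were also low on 5-FU arrays, CDC25B on those with treated RNA in channel 2 alone. The fit with the channel term and 5-FU arrays averaged per replicate could test neither in 5-FU. CDC25C (−0.16) and CKS2 (0.04) were tested there and not called. In cytarabine 4 of 17 rose, led by FOXM1 and CENPA at 0.64 each, and 5 fell, led by AURKA (−0.82) and TOP2A (−0.79). In cisplatin 3 of 17 rose and 3 fell, in paclitaxel 2 rose and 3 fell, and in cytochalasin D 0 rose and 5 fell. Several of these calls rest on the channel term. MAD2L1, a spindle checkpoint protein, rose in cytarabine (0.61), cisplatin (0.74) and paclitaxel (0.68) with it and read −0.10, 0.02 and −0.04 with no term, none of them called. CENPA, the histone of centromeres, lost its call in paclitaxel (0.19, against 0.53 with the term). AURKA, which fell in all 5 drugs with the term, lost its call in cisplatin (−0.24, against −0.41). HMGB2 lost its calls too, though its ratio hardly moved. It was −0.45 in cytarabine, against −0.44 with the term, and −0.47 in cytochalasin D with and without it.

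Of 11 measured checkpoint and ubiquitin genes, 5 were tested with the channel term in 5-FU and 6 in cytarabine. In cisplatin 7 were tested, and in paclitaxel and cytochalasin D 8 each. The kinase ATM fell in cytarabine (−1.55), cisplatin (−0.73), paclitaxel (−1.24) and cytochalasin D (−1.24), the drugs in which E2F6 fell. MYC fell in cytochalasin D (−0.37), and no other tested gene of the list passed with the term. With no channel term 1 of 9 tested genes rose and 0 fell in 5-FU, and 1 of 10 rose and 1 fell in cisplatin. Of 5 measured epithelial markers KRT8 alone was tested with the term, and it fell in cytochalasin D (−0.30); a ratio cannot show the level of any of them, so the cell type was not checked.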

How the data were processed

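RNA of H460 cells was measured on 12 two-channel arrays in 5 drugs, with groups, doses and channels per the labels. The authors deposited 1 log ratio of the channels per probe, taken here as log2; log base, numerator, normalization and spot filter: not given in the sources used here. A natural log is not excluded and would change sizes, not directions or calls by adjusted p. No depth or signal over background is known, and the small number of arrays limits the precision.

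Of 8170 probes, 5930 match 1 gene, 79 several and 2161 none. Probes of a gene were averaged, which gives 7739 features. Arrays were centred on their medians and turned to treated over untreated. For 5-FU, arrays of both orientations were averaged per replicate, and the difference between orientations, as a channel effect, entered as 1 channel observation (weight 4 for 2 pairs, 2 for 1 pair). Weighted linear models with variances moderated by limma 3.58.1 in R 4.3.3 were fitted to 10 replicates across all features, with 5 drug terms and the channel term, and Benjamini-Hochberg adjustment. The ratio was tested against 0. Simulated data with known changes were used to test the fit. The self-made steps ran in Python 3.11.15.

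Genes were named by rule: 16 measured of 28 listed core genes, and per comparison up to 5 called rises and 5 called falls. The members and lists were chosen with earlier results of these data known. From the pathway lists, up to 2 called genes each way per drug are named. Members outside the rule (such as E2F3, CDK9 and CCNA1) were chosen after their values were seen. Replicate numbers do not pair the samples: deviations of same-numbered replicates correlated at −0.0611 to 0.0904 between drugs. Alternatives dropped the channel term or the centring, took each array as an observation, scaled the arrays, added a replicate block, kept complete features, used robust moderation or 1 probe per gene, asked for an absolute log2 ratio of at least 0.5, or left out 1 replicate at a time; a drug's remaining replicate then takes its spread from the other drugs. For genes untested with the channel term, leaving out replicates without that term was added after seeing the data. Promoters are from RefSeq, GRCh38.p14.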

Additional observations from a re-analysis of the deposited data

How the results depend on the processing

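Without the channel term the number of genes past the threshold was 8 in 5-FU, 6 in cisplatin, 5 in cytochalasin D and 32 over the pairs of drugs, against 2, 1, 1 and 21 with it; more genes are tested without the term (30, 40 and 41 in these 3 drugs, against 18, 29 and 29). Taking every array as an observation of its own, 7 of 26 passed in 5-FU, against 25.2% of 5037 features. Tested genes and the share of all features that pass also change between settings, so no count here shows a change particular to these genes. With only features that have a value on all 12 arrays 3 passed in cytarabine, 3 in cisplatin, 1 in paclitaxel, 3 in cytochalasin D and 1 between the DNA-directed and the cytoskeletal drugs, and a minimum absolute log2 ratio of 0.5 left 5 in cytarabine. Scaled arrays gave 4 in cytochalasin D. With the replicate block 0 passed in cytochalasin D, 7 in cytarabine, 16 over the pairs and 1 between the DNA-directed and the cytoskeletal drugs; it changed no other count of calls per drug, and among the pairs it ended the calls of E2F4, CDK16 and CCNT2 (cytarabine minus cytochalasin D), CDK18 (cytarabine minus cisplatin) and CCNE1 (cisplatin minus cytochalasin D). Leaving out each replicate gave 2 to 3 in 5-FU, 1 to 9 in cytarabine, 0 to 3 in cisplatin, 0 to 3 in paclitaxel, 0 to 2 in cytochalasin D, 5 to 32 over the pairs and 0 to 1 between the DNA-directed and the cytoskeletal drugs. Without 5-FU replicate 1 only 1 gene passed in cytarabine and 0 in paclitaxel and in cytochalasin D, with 18 genes tested in each. Without 5-FU replicate 2 the pairs had 32 calls and the DNA-directed against cytoskeletal drugs 1. Without cytarabine replicate 1 cisplatin had 3 and cytochalasin D 2, and without cytarabine replicate 2 cytarabine had 4, cisplatin 3, cytochalasin D 2 and the pairs 11. Without cisplatin replicate 1 cisplatin had 0 and the pairs 5, and without cisplatin replicate 2 the pairs had 11. Without paclitaxel replicate 1 paclitaxel had 0 and cytochalasin D 2, and without paclitaxel replicate 2 paclitaxel had 0. Without cytochalasin D replicate 1 the pairs had 13, and without cytochalasin D replicate 2 cytochalasin D had 0 and the DNA-directed against cytoskeletal drugs 1. CDK1 changed sign without the channel term, to −0.37 in cytarabine and −0.29 in cytochalasin D, both then called, and to −0.12 in cisplatin and −0.21 in paclitaxel, not called. Each shift has the size of the CDK1 channel effect (−0.42), which rests on 1 pair of 5-FU arrays and was not tested on those of the other drugs. Among 83 named values of a gene in a drug over untreated, 15 of them called, no centring, robust moderation and the probe with the most values changed no call or direction. With 2 replicates per drug and many missing 5-FU values, a gene that missed the threshold is not shown to be unaltered.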
